A study of Homo sapiens with 9 samples.

Results

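The 10 genes described here encode the ERBB receptors EGFR, ERBB2, ERBB3 and ERBB4, the neuregulins NRG1 and NRG2, and the EGF-type ligands AREG, EREG, HBEGF and TGFA. They were chosen by name from the 20030 genes of the deposited tables, by a rule that used none of their values, although earlier results of these data were known when the set was drawn up. Of the 10 genes, 9 had a count in at least 1 library and ERBB4 had none. RNA was sequenced from 3 lines with 3 libraries each, 9 libraries in all. Wild-type MHCC97L is a human hepatocellular carcinoma cell line that received no drug. MHCC97L-Src was derived from it by stepwise exposure to saracatinib, an inhibitor of Src family kinases, until it was stably resistant at 4 μmol/L. MHCC97L-Oxa was derived by exposure to the platinum drug oxaliplatin until it was stably resistant at 2 μmol/L. All lines were kept in the same serum-containing medium, and each drug is represented by 1 resistant line. A difference between drugs and a difference between derived lines therefore cannot be told apart. The labels name no separate cultures behind the 3 libraries of a line, while the study's text speaks of independent experiments for MHCC97L and MHCC97L-Src. The p-values measure the spread between these libraries, which may in part be technical. From the same libraries, the study lists NRG2 and ERBB3 among drug resistance genes altered in both resistant lines, by its own threshold.

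ERBB receptors are cell surface tyrosine kinases that act in pairs after a ligand has bound outside the cell. EGFR binds AREG, TGFA and, like ERBB4, EREG and HBEGF, while ERBB3 and ERBB4 bind neuregulins, ERBB2 has no known ligand of its own, and ERBB3 has little kinase activity and signals through its partner. The ligands are made as membrane-anchored precursors that ADAM proteases cut free, and in liver EGFR is known as a receptor of hepatocyte growth and regeneration.

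The libraries held between 16970486 and 18209213 counted reads. Levels within a gene are given as CPM, read counts scaled to TMM-adjusted library sizes, and levels between genes as deposited FPKM, which is per transcript length. A floor of 3 counts, equal to 0.148 to 0.198 CPM, was taken as the limit that counting error alone sets. Of 9 hepatocyte markers, ALB, AFP, APOB and TTR were at 0 in all 9 libraries and the summed level of the list lay between 0.198 and 2.17 CPM, so the hepatocyte markers expected of the labelled tissue were largely absent. The epithelial markers KRT8 and KRT18 carried nearly all of an epithelial sum of 2940 to 5830 CPM in MHCC97L, 4550 to 7160 CPM in MHCC97L-Src and 2970 to 3230 CPM in MHCC97L-Oxa. Of the others on this list, EPCAM had at most 2 counts in any library. CDH1 was lower in both resistant lines, at 0.806 to 1.12 CPM in MHCC97L, 0.132 to 0.297 CPM in MHCC97L-Src and 0.113 to 0.222 CPM in MHCC97L-Oxa. The summed level of 3 endothelial markers was 2.15 to 2.7 CPM in MHCC97L, 12.3 to 15.2 CPM in MHCC97L-Src and 1.34 to 1.81 CPM in MHCC97L-Oxa. CDH5 was its main gene in MHCC97L-Src, whereas PECAM1 was above it in each MHCC97L-Oxa library. The summed level of 5 fibroblast and stellate markers was 140.0 to 199.0 CPM, 94.9 to 99.4 CPM and 169.0 to 185.0 CPM, in the same order. The leukocyte markers PTPRC and LYZ were at 0 throughout, while CD68 was at 42.6 to 76.9 CPM in MHCC97L, from 69.7 CPM upward in MHCC97L-Src and at 145.0 to 147.0 CPM in MHCC97L-Oxa, above all others. Between the resistant lines KRT8, KRT18 and CDH5 were called higher and CD68, DCN and PDGFRB lower in MHCC97L-Src by edgeR. Against MHCC97L, CDH5 was called higher in MHCC97L-Src and the hepatocyte marker SERPINA1 higher in MHCC97L-Oxa. SERPINA1 had 1 count in each MHCC97L library and 14 to 31 counts in MHCC97L-Oxa. In RNA of whole cultures, fewer cells of a type and less RNA per cell cannot be told apart, and the part of these markers in the results was not tested.

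MHCC97L replicate 1 stood apart from the other 8 libraries. It lay at 136 on a principal component that held 63.3% of the variance, and MHCC97L replicate 3 lay at 47, while the remaining libraries lay between -60.5 and -9.3. The ratio of replicate 1 to the mean of the other MHCC97L libraries had a median of 3.03 among genes with a transcript GC content near 40.0% and of 0.569 among genes near 64.4%. Most ERBB genes with counts lay within this range of medians, while NRG1, with 15, 1 and 1 counts in MHCC97L, and EREG lay above it. This ratio was 13.2 for NRG1, 3.38 for EREG, 2.01 for AREG, 1.96 for EGFR, 1.34 for TGFA, 1.05 for ERBB3, 0.94 for HBEGF and 0.601 for ERBB2, with transcript GC contents of 43.9%, 36.1%, 45.3%, 47.5%, 45.9%, 52.0%, 50.9% and 57.5%. Both comparisons of a resistant line with MHCC97L use this library, and the receptor and ligand genes whose calls or directions it moves are given with and without it.

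**Figure D1:**
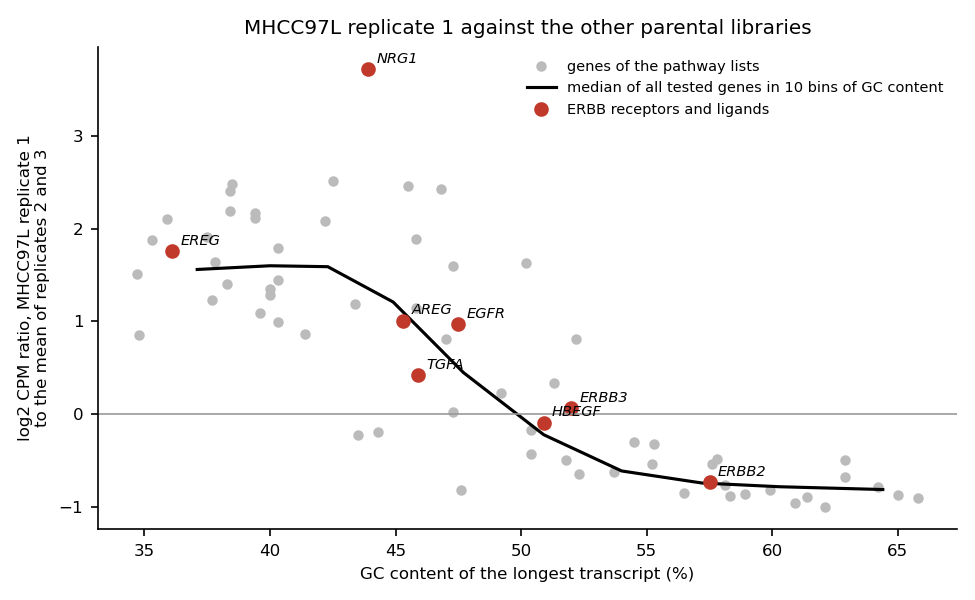
Log2 ratio of CPM in MHCC97L replicate 1 to the mean of MHCC97L replicates 2 and 3 (y axis) against GC content of the longest transcript in percent (x axis). Red points are ERBB receptors and ligands, grey points genes of the ERBB pathway lists, and the line joins the medians of all tested genes in 10 bins of GC content; EREG, AREG, EGFR and TGFA lie above 0 and ERBB2 lies below it, NRG1 has 15 counts in replicate 1 and 1 in each of the other libraries, and NRG2 and ERBB4 are not drawn because they had no counts in MHCC97L.

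NRG2 was the only one of the 10 genes whose change passed an adjusted p of 0.05 in any comparison by edgeR, and it rose in MHCC97L-Src. It passed the count filter only through its MHCC97L-Src libraries, so a lower level there could not have been found by these tests. Neuregulin 2 is a ligand of ERBB3 and ERBB4, and its gene (NCBI gene 9542) spans bases 139846779 to 140043299 of chromosome 5 (GRCh38, - strand). NRG2 had 0, 0 and 0 counts in the MHCC97L libraries, 21, 18 and 19 counts in MHCC97L-Src, and 4, 1 and 5 counts in MHCC97L-Oxa. All MHCC97L-Src libraries were above every library of the other lines. The MHCC97L-Src libraries averaged 1.16 ± 0.101 CPM (SD, n = 3), and those of MHCC97L-Oxa averaged 0.187 ± 0.118 CPM (SD, n = 3), close to the floor. Against MHCC97L, where no read was counted, the level in MHCC97L-Src was at least 7.19-fold higher than the mean floor of 0.162 CPM (3 counts per library). The edgeR quasi-likelihood test gave an adjusted p of 0.0158, and its fitted log2 fold change of 7.34 depends on the prior count and is no measure of size. The call was lost without MHCC97L replicate 3 (adjusted p = 0.0646 by edgeR) or without MHCC97L-Src replicate 3 (adjusted p = 0.0611 by edgeR).

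RefSeq lists transcription starts at separate places for NRG2, and the 250 bases before each start are shown because NRG2 was the gene whose change passed the test. Gene counts do not say which start the reads came from. Sequences are from RefSeq (GRCh38.p14), 5′ to 3′ on the strand of the gene, with matches to searched motifs in capitals.
NRG2 start 1, chr5:140043300-140043549, - strand: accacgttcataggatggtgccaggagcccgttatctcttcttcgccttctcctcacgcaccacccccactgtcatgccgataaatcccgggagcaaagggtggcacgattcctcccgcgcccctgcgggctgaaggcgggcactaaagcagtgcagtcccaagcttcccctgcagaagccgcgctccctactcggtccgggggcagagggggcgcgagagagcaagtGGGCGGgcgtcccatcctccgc
NRG2 start 2, chr5:139904472-139904721, - strand: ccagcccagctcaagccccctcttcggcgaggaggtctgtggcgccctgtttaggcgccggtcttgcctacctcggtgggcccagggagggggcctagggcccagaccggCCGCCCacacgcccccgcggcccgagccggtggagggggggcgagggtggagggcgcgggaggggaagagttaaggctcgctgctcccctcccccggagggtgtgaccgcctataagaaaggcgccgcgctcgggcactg
The searched motifs were the TATA box TATAAA, the cyclic AMP response element TGACGTCA, the AP-1 site TGANTCA and the GC box GGGCGG, each on both strands. No match of TGANTCA can lie within TGACGTCA. Both windows held a GC box, which begins 22 bases before start 1 on the forward strand and 140 bases before start 2 on the reverse strand. GC boxes occur in 42.6% of 35116 windows of the same length, and the GC contents of the NRG2 windows were 65.2% and 73.6%. A match describes the letters and does not show that a factor binds.

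Between the resistant lines, NRG2 was higher in MHCC97L-Src than in MHCC97L-Oxa by 2.60 ± 0.52 (log2 fold change ± SE, adjusted p = 0.0211 by edgeR). This is also the test of whether the lines differ in their distance from MHCC97L. In edgeR fits, the adjusted p rose to 0.073, 0.11 and 0.0519 without MHCC97L-Oxa replicates 1, 2 and 3 and to 0.0875 without MHCC97L-Src replicate 1. NRG2 was left out of the test of MHCC97L-Oxa against MHCC97L for low counts. Its counts there were above those of MHCC97L in each library, by 1 to 5 reads.

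The genes whose pattern over the 9 libraries was most like that of NRG2 were GAL3ST1, a sulfotransferase, C4B, a complement component, and FOXO6, a transcription factor. Likeness was the root mean square difference of centred log2 CPM among 12249 genes, and it was 0.381, 0.464 and 0.485. Transcript GC contents of these genes are 62.9%, 58.4% and 70.6%, and that of NRG2 is 61.9%. GAL3ST1 had 0 counts in each MHCC97L library, 12, 31 and 13 counts in MHCC97L-Src, and 3, 1 and 4 counts in MHCC97L-Oxa. FOXO6 had 96, 166 and 132 counts in the MHCC97L libraries, 819, 1059 and 853 counts in MHCC97L-Src, and 320, 313 and 312 counts in MHCC97L-Oxa. C4B had 18 to 29, 135 to 143 and 22 to 42 counts in these lines, and its counts are uncertain because a near-identical copy of the gene exists. All 3 genes shared with NRG2 that every MHCC97L-Src library was above every library of the other lines. Since they were picked for likeness to NRG2 in the same libraries, this is no separate result. The likeness is a description of these 9 libraries.

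NRG1, neuregulin 1, a ligand of ERBB3 and ERBB4 encoded on chromosome 8, was likewise at very low levels. Its reads numbered 15, 1 and 1 for MHCC97L, 24, 12 and 17 for MHCC97L-Src, and 7, 5 and 3 for MHCC97L-Oxa. On the CPM scale this was 0.741, 0.0587 and 0.0537 CPM, 1.42, 0.794 and 0.939 CPM, and 0.39, 0.277 and 0.17 CPM. On the CPM scale the MHCC97L-Src libraries were above all others, although in unscaled reads MHCC97L replicate 1 was above MHCC97L-Src replicate 2. The log2 fold change of MHCC97L-Src against MHCC97L was 1.77 ± 0.86 (SE), with an adjusted p of 0.202 by edgeR. Without MHCC97L replicate 1 it was 4.07 with an adjusted p of 0.0185 by edgeR, a size that rests on 1 read in each remaining MHCC97L library. Against MHCC97L-Oxa the log2 difference was 1.90 ± 0.49 (SE), with an adjusted p of 0.057 by edgeR. It passed the threshold without MHCC97L-Src replicate 2 (adjusted p = 0.0383 by edgeR) or replicate 3 (adjusted p = 0.0375 by edgeR). Limma voom called NRG1 in both comparisons, at 3.90 (adjusted p = 0.000881) and 2.27 (adjusted p = 0.000511) on the log2 scale, as did edgeR with a correction for GC content and gene length, at 2.83 (adjusted p = 0.03) and 2.07 (adjusted p = 0.0243). DESeq2 called it in neither (adjusted p = 0.235 and 0.0726). MHCC97L-Oxa and MHCC97L overlapped, and NRG1 was not tested between them for low counts. In the other comparisons NRG1 passed the count filter only through MHCC97L-Src.

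**Figure D2:**
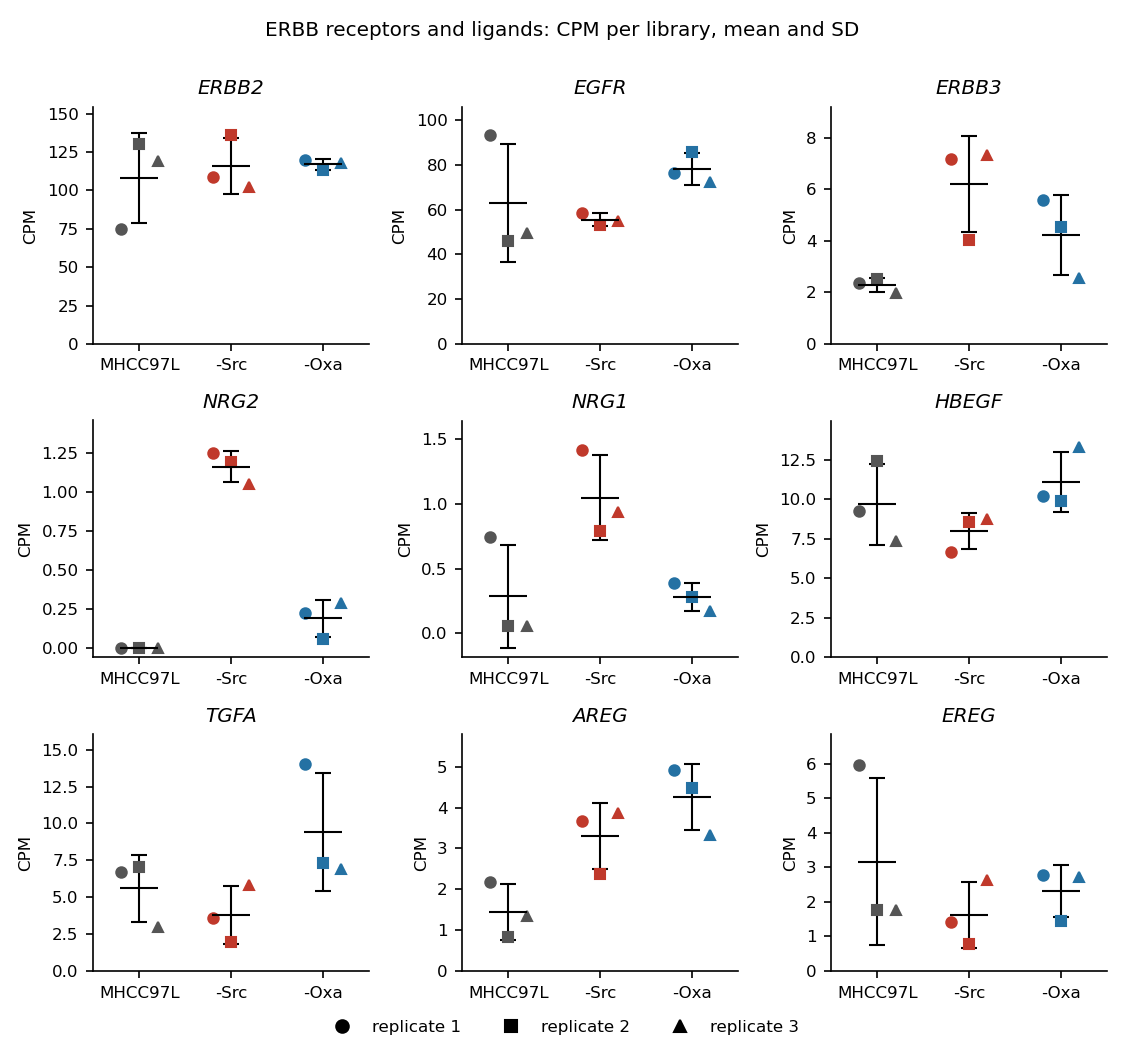
CPM of 9 ERBB receptors and ligands (y axis, linear, a separate scale per gene) in the 3 libraries of MHCC97L, MHCC97L-Src and MHCC97L-Oxa (x axis). Points are libraries with 1 shape per replicate number, and horizontal lines with bars are mean and SD; NRG2 is at 0 in MHCC97L and between 1.05 and 1.25 CPM in MHCC97L-Src, and for EGFR and EREG the highest MHCC97L point is replicate 1.

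Among the receptors, none passed an adjusted p of 0.05 in any comparison by edgeR. On counts simulated with the same dispersion for every gene, fits against MHCC97L recovered 2 of 99 changes of 1 on the log2 scale. A receptor or ligand gene that did not pass there may therefore still differ. The share recovered need not hold for a single gene, whose own spread can differ from the common one. Before adjustment, ERBB3 passed in MHCC97L-Src against MHCC97L and EGFR between the resistant lines, and DESeq2 called both after adjustment. Limma voom called these as well, and also EGFR in MHCC97L-Oxa against MHCC97L and ERBB3 between the resistant lines. ERBB2, which pairs with the other receptors and lies on chromosome 17 from 39687914 to 39730426, was measured at 74.8, 130.0 and 119.0 CPM in MHCC97L. It was at 109.0, 136.0 and 102.0 CPM in MHCC97L-Src and at 120.0, 113.0 and 118.0 CPM in MHCC97L-Oxa. The ranges overlapped, and MHCC97L replicate 1 was the lowest of all 9 libraries. The log2 fold changes against MHCC97L were 0.06 ± 0.27 in MHCC97L-Src and 0.07 ± 0.23 in MHCC97L-Oxa (SE, adjusted p = 0.893 and 0.876 by edgeR). Without MHCC97L replicate 1 they turned to -0.10 and -0.04 (adjusted p = 0.785 and 0.726 by edgeR). Between the resistant lines the log2 difference was -0.01 ± 0.13 (SE, adjusted p = 0.977 by edgeR).

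EGFR, the receptor of AREG, EREG, HBEGF and TGFA, lies on chromosome 7 from 55019021 to 55211628. Its level was 93.3, 46.0 and 49.3 CPM in MHCC97L, 58.5, 53.1 and 55.0 CPM in MHCC97L-Src, and 76.1, 85.8 and 72.3 CPM in MHCC97L-Oxa. MHCC97L replicate 1 was the highest of all 9 libraries, and each MHCC97L-Oxa library was above each MHCC97L-Src library. Against MHCC97L the log2 difference was -0.23 ± 0.33 for MHCC97L-Src and 0.25 ± 0.31 for MHCC97L-Oxa (SE, adjusted p = 0.647 and 0.623 by edgeR). Without MHCC97L replicate 1 these values became 0.23 and 0.76, and the adjusted p in MHCC97L-Oxa was 0.00728 by edgeR. MHCC97L-Src was lower than MHCC97L-Oxa by a log2 difference of -0.48 ± 0.12 (SE), which did not pass the threshold (adjusted p = 0.0548 by edgeR). It did so without MHCC97L-Src replicate 2 (adjusted p = 0.022 by edgeR) or replicate 3 (adjusted p = 0.0403 by edgeR).

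ERBB3, the neuregulin receptor, lies on chromosome 12 from 56076799 to 56103505. It had 2.37, 2.52 and 1.99 CPM in MHCC97L, 7.18, 4.04 and 7.34 CPM in MHCC97L-Src, and 5.58, 4.54 and 2.55 CPM in MHCC97L-Oxa. Every library of either resistant line was above every MHCC97L library, although MHCC97L-Oxa replicate 3 was so by a narrow margin. MHCC97L-Src differed from MHCC97L by 1.39 ± 0.44 on the log2 scale (SE, unadjusted p = 0.0127, adjusted p = 0.112 by edgeR), so the difference did not pass over all genes tested. Without MHCC97L replicate 2 the adjusted p was 0.0441 by edgeR. For MHCC97L-Oxa it was 0.83 ± 0.43 (SE, adjusted p = 0.264 by edgeR). The resistant lines overlapped, with a log2 difference of 0.56 ± 0.34 (SE, adjusted p = 0.384 by edgeR). ERBB4, the other neuregulin receptor, had 0 counts in all 9 libraries, which allows up to 3 counts per library, and it was not tested.

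The EGF-type ligands bind EGFR, and none of the 4 passed an adjusted p of 0.05 in any comparison by edgeR. Before adjustment, AREG passed in MHCC97L-Oxa against MHCC97L and TGFA between the resistant lines, and DESeq2 called TGFA there after adjustment. Limma voom called AREG in both resistant lines against MHCC97L, and TGFA and HBEGF between the resistant lines. AREG, amphiregulin, had 2.17, 0.822 and 1.34 CPM in MHCC97L, 3.68, 2.38 and 3.87 CPM in MHCC97L-Src, and 4.91, 4.49 and 3.34 CPM in MHCC97L-Oxa. All libraries of both resistant lines were above all MHCC97L libraries, and the resistant lines overlapped. Against MHCC97L the log2 difference was 1.13 ± 0.51 for MHCC97L-Src (SE, adjusted p = 0.178 by edgeR) and 1.48 ± 0.48 for MHCC97L-Oxa (SE, unadjusted p = 0.0145, adjusted p = 0.188 by edgeR). Without MHCC97L replicate 1, the value in MHCC97L-Oxa was 2.00 with an adjusted p of 0.0186 by edgeR. The log2 difference between the resistant lines was -0.34 ± 0.28 (SE, adjusted p = 0.541 by edgeR).

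EREG, epiregulin, lies next to AREG on the same strand of chromosome 4, from 74365143 to 74388751 against 74445134 to 74455009, with 56382 bases between them. Its libraries were at 5.98, 1.76 and 1.77 CPM in MHCC97L, 1.42, 0.794 and 2.65 CPM in MHCC97L-Src, and 2.79, 1.44 and 2.72 CPM in MHCC97L-Oxa. All 3 lines overlapped, and MHCC97L replicate 1 was the highest library. The log2 fold changes were -1.02 ± 0.67 in MHCC97L-Src and -0.52 ± 0.60 in MHCC97L-Oxa (SE, adjusted p = 0.323 and 0.595 by edgeR), and without MHCC97L replicate 1 they became -0.10 and 0.44. The log2 difference between the resistant lines was -0.48 ± 0.45 (SE, adjusted p = 0.596 by edgeR).

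The upstream windows of AREG and EREG are shown because the genes are neighbours, and AREG was above MHCC97L in every library of both resistant lines while EREG overlapped.
AREG, chr4:74444886-74445135, + strand: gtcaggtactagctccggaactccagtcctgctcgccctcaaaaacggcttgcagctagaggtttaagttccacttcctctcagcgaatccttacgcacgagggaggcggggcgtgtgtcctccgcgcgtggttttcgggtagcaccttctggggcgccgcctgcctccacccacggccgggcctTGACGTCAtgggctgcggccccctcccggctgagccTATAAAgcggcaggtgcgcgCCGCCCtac
EREG, chr4:74364895-74365144, + strand: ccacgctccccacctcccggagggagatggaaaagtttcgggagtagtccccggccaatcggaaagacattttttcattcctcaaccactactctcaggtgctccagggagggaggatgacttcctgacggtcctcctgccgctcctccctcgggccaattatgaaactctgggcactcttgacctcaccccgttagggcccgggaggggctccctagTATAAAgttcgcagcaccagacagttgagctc
Both windows held TATAAA, which begins 29 bases before the start of AREG and 32 bases before that of EREG and occurs in 10.7% of windows. The AREG window also held TGACGTCA, which begins 65 bases before the start and occurs in 1.65% of windows, and a reverse GC box that begins 9 bases before it. The AP-1 letters TGANTCA, found in 6.57% of windows, were in neither window nor in those of NRG2.

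HBEGF, heparin binding EGF like growth factor, was at 9.29, 12.4 and 7.36 CPM in MHCC97L, 6.70, 8.54 and 8.78 CPM in MHCC97L-Src, and 10.2, 9.92 and 13.3 CPM in MHCC97L-Oxa. MHCC97L overlapped both resistant lines, and each MHCC97L-Src library was below each MHCC97L-Oxa library. The log2 fold changes against MHCC97L were -0.31 ± 0.40 and 0.15 ± 0.36 (SE, adjusted p = 0.608 and 0.803 by edgeR). The log2 difference between the resistant lines was -0.47 ± 0.21 (SE, adjusted p = 0.264 by edgeR).

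TGFA, transforming growth factor alpha, was at 6.72, 7.05 and 3.01 CPM in MHCC97L, 3.56, 1.98 and 5.85 CPM in MHCC97L-Src, and 14.0, 7.31 and 6.92 CPM in MHCC97L-Oxa. Again MHCC97L overlapped both lines and MHCC97L-Src was below MHCC97L-Oxa in every library. Against MHCC97L the log2 fold changes were -0.59 ± 0.55 and 0.70 ± 0.49 (SE, adjusted p = 0.475 and 0.37 by edgeR). The log2 difference between the resistant lines was -1.28 ± 0.40 (SE, unadjusted p = 0.00955, adjusted p = 0.111 by edgeR). It reached -1.75 with an adjusted p of 0.00582 by edgeR without MHCC97L-Src replicate 3.

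In counts over the genes tested, MHCC97L-Src against MHCC97L had 1 of 9 receptor and ligand genes past an adjusted p of 0.05 by edgeR, NRG2, where 2.13% of 12037 genes passed and 1.43% passed as higher. With p under 0.05 before adjustment and a log2 fold change beyond 1 in size, ERBB3 and NRG2 were higher and none was lower, beside 24.6% of all genes in either direction and 5.74% higher. The libraries of the lines did not overlap for 4 of the 9 genes, all higher, beside 29.9% of all genes, 18.7% higher and 11.2% lower. NRG1 and NRG2, among these 4, had passed the count filter only through MHCC97L-Src, so neither could lie lower there. The median log2 fold change was 0.06 over these genes, also with NRG2 at its lower bound, and -0.16 over all genes.

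MHCC97L-Oxa against MHCC97L had 0 of 7 genes past an adjusted p of 0.05 by edgeR, where 0.953% of 12064 genes passed (0.771% higher and 0.182% lower), and AREG alone had an unadjusted p under 0.05, beside 22.4% of all genes. The number of genes past the adjusted threshold was 0 also by DESeq2 and 2 by limma voom, AREG and EGFR. With a log2 fold change over 1 as well, AREG was the 1 gene called, beside 16.2% of all genes and 4.63% higher. Libraries did not overlap for ERBB3 and AREG, both higher, beside 28.1% of all genes, 19.6% higher and 8.42% lower. The median log2 fold change was 0.25 over the 7 genes and -0.19 over all genes. Both comparisons share the MHCC97L libraries, so that a like direction in them is not independent.

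MHCC97L-Src against MHCC97L-Oxa had 1 of 9 genes past an adjusted p of 0.05 by edgeR, NRG2, where 4.64% of 11994 genes passed and 2.12% passed as higher. At the unadjusted threshold with a log2 fold change over 1, NRG1 and NRG2 were higher and TGFA was lower in MHCC97L-Src, beside 4.01% of all genes, 1.49% higher and 2.52% lower. Libraries did not overlap for 5 of the 9 genes, with NRG1 and NRG2 higher and EGFR, HBEGF and TGFA lower, beside 26.5% of all genes. The neuregulins were thus higher and EGFR and a pair of its ligands lower in every MHCC97L-Src library than in every MHCC97L-Oxa library, but NRG2 alone passed the adjusted threshold. The neuregulins passed the count filter through MHCC97L-Src alone, so only a higher level there could be found for them.

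**Figure D3:**
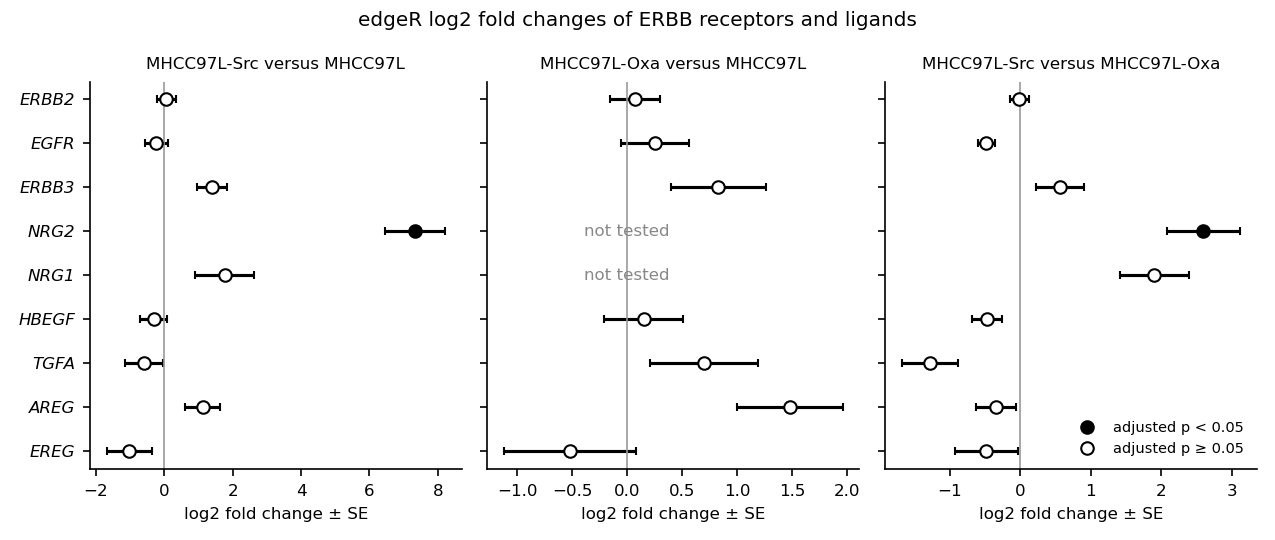
Log2 fold changes by edgeR (x axis, a separate scale per panel) of 9 ERBB receptors and ligands in the 3 comparisons, 6 libraries each. Bars are SE, filled points have an adjusted p under 0.05, and genes left out for low counts are marked as not tested; NRG2 is the filled point in MHCC97L-Src against either other line, where its position against MHCC97L depends on the prior count.

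**Figure D4:**
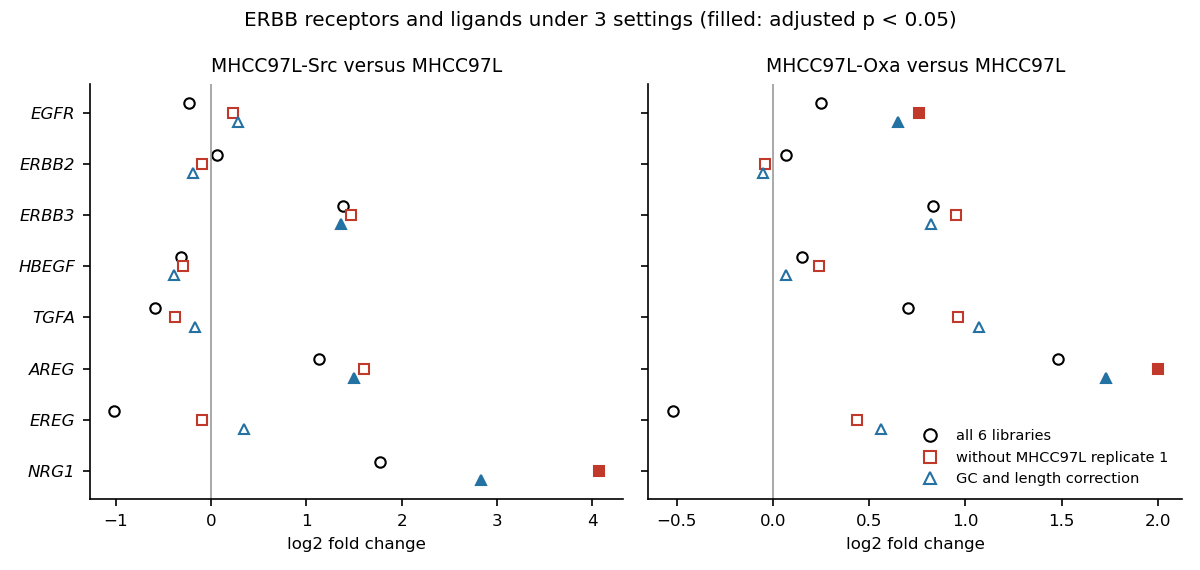
Log2 fold changes against MHCC97L (x axis) of 8 ERBB receptors and ligands with all 6 libraries (circles), without MHCC97L replicate 1 (squares), and with a correction for GC content and gene length (triangles), filled at an adjusted p under 0.05. EGFR and EREG shift upward in both comparisons once replicate 1 is left out, AREG and EGFR are then filled in MHCC97L-Oxa at 2.00 and 0.76, and NRG2 is not drawn because its MHCC97L counts are 0.

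Per transcript length, ERBB2 had the highest level of the 10 genes in each line, with a median of 14.6 FPKM in MHCC97L, 12.5 FPKM in MHCC97L-Src and 14.4 FPKM in MHCC97L-Oxa. EGFR followed at 4.19, 4.56 and 6.22 FPKM and HBEGF at 3.32, 2.39 and 3.28 FPKM. ERBB2 did not overlap EGFR in any line, whereas EGFR and HBEGF overlapped in MHCC97L. The FPKM of EGFR divided by that of ERBB2 gave 0.835, 0.241 and 0.287 for MHCC97L, 0.368, 0.27 and 0.385 for MHCC97L-Src, and 0.432, 0.523 and 0.407 for MHCC97L-Oxa. EGFR was thus below ERBB2 in every library, and MHCC97L replicate 1 had the ratio nearest to 1.

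The next places differed in order between lines. In MHCC97L they were TGFA at 1.31, AREG at 0.788 and EREG at 0.485 FPKM, each overlapping its neighbour, and then ERBB3 at 0.245 FPKM, below the lowest EREG library. In MHCC97L-Src AREG at 1.79 FPKM overlapped HBEGF, and ERBB3 at 0.724, TGFA at 0.671 and EREG at 0.349 FPKM overlapped in turn. In MHCC97L-Oxa AREG at 2.46 and TGFA at 1.44 FPKM overlapped, as did EREG at 0.642 and ERBB3 at 0.545 FPKM. The neuregulins were last among the genes with reads. NRG2 had a median of 0.0541 FPKM and NRG1 of 0.0279 FPKM in MHCC97L-Src, against 0.00447 and 0.0173 FPKM in MHCC97L-Oxa. In MHCC97L NRG2 and ERBB4 were listed at 0, and NRG1 had a median of 0.00348 FPKM.

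**Figure D5:**
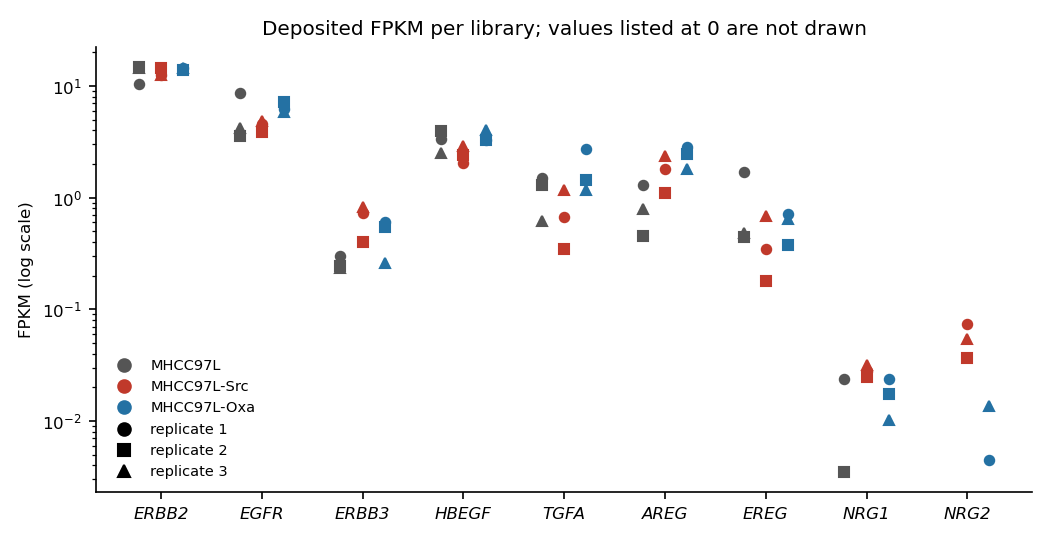
Deposited FPKM (y axis, log scale) of 9 ERBB receptors and ligands (x axis) in each library of MHCC97L, MHCC97L-Src and MHCC97L-Oxa; values listed at 0 are not drawn. ERBB2 lies at 10.3 to 14.7 FPKM in all lines, and the neuregulins lie below 0.1 FPKM.

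Of 64 further genes of the ERBB pathway in 6 lists, 58 were tested in each comparison. In MHCC97L-Src against MHCC97L, 1 passed an adjusted p of 0.05 by edgeR, beside 2.13% of all genes. LRIG1, a membrane protein that restrains ERBB receptors, had 1.19, 1.59 and 1.83 CPM in MHCC97L, 10.9, 10.5 and 13.1 CPM in MHCC97L-Src and 8.31, 7.26 and 6.24 CPM in MHCC97L-Oxa. It was higher in every library of both resistant lines. LRIG1 rose in MHCC97L-Src by 2.86 ± 0.43 on the log2 scale (SE, adjusted p = 0.0184 by edgeR), and its log2 fold change in MHCC97L-Oxa was 2.19 ± 0.39 (SE, adjusted p = 0.0512 by edgeR). The call in MHCC97L-Src was lost without MHCC97L replicate 3 (adjusted p = 0.0858 by edgeR) or without MHCC97L-Src replicate 1, 2 or 3 (0.0716, 0.0635 and 0.0931). In MHCC97L-Oxa LRIG1 passed without MHCC97L replicate 1 (adjusted p = 0.00661 by edgeR) or replicate 2 (0.0138), and it was called there by DESeq2 and limma voom.

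In MHCC97L-Oxa against MHCC97L, GRB7, an adaptor that binds activated ERBB receptors and is a neighbour of ERBB2 on chromosome 17, was the 1 pathway gene called, beside 0.953% of all genes. It had 14.6, 26.0 and 25.2 CPM in MHCC97L, 55.7, 65.4 and 54.7 CPM in MHCC97L-Src, and 71.7, 70.0 and 66.7 CPM in MHCC97L-Oxa. All libraries of both resistant lines were above those of MHCC97L. GRB7 rose in MHCC97L-Oxa by 1.61 ± 0.28 on the log2 scale (SE, adjusted p = 0.0428 by edgeR), and in MHCC97L-Src the log2 fold change was 1.38 ± 0.31 (SE, adjusted p = 0.0629 by edgeR). The call in MHCC97L-Oxa was lost without MHCC97L replicate 3 (adjusted p = 0.144 by edgeR) or without MHCC97L-Oxa replicate 1, 2 or 3 (0.27, 0.293 and 0.261). In MHCC97L-Src GRB7 passed without MHCC97L replicate 1 (adjusted p = 0.011 by edgeR) or replicate 2 (0.012), and it was called there by DESeq2 and limma voom.

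Between the resistant lines, 3 of 58 pathway genes passed and all were lower in MHCC97L-Src, a share near that of all genes, of which 4.64% passed and 2.52% passed as lower. ADAM12, a metalloprotease, had 2.91, 2.25 and 2.54 CPM in MHCC97L-Src against 6.64, 8.64 and 5.50 CPM in MHCC97L-Oxa, a log2 difference of -1.42 ± 0.26 (SE, adjusted p = 0.0127 by edgeR). ADAM19, of the same protease family, had 20.3, 17.1 and 20.8 CPM against 30.0, 34.9 and 33.6 CPM (-0.75 ± 0.16 on the log2 scale, SE, adjusted p = 0.026 by edgeR). ERRFI1, an inhibitor of the EGFR kinase, had 69.2, 53.3 and 71.7 CPM against 129.0, 109.0 and 93.5 CPM (-0.76 ± 0.16 on the log2 scale, SE, adjusted p = 0.0272 by edgeR). None of these 3 genes overlapped between the lines. Without MHCC97L-Oxa replicate 2 none of the 3 passed (adjusted p = 0.101, 0.171 and 0.123 by edgeR). ADAM19 and ERRFI1 were also lost without MHCC97L-Oxa replicate 1 (0.0696 and 0.125) or MHCC97L-Src replicate 1 (0.111 and 0.0875), and ADAM19 without MHCC97L-Oxa replicate 3 (0.133). Against MHCC97L, ERRFI1 and ADAM19 had log2 fold changes of 1.66 and 1.04 in MHCC97L-Oxa (adjusted p = 0.109 and 0.159 by edgeR), and of 2.29 and 0.97 without MHCC97L replicate 1 (adjusted p = 0.00357 and 0.0105 by edgeR).

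By the unadjusted threshold with a log2 fold change over 1, 2 pathway genes were higher and 16 lower in MHCC97L-Src than in MHCC97L, beside 5.74% of all genes higher and 18.9% lower. In MHCC97L-Oxa 5 were higher and 10 lower, beside 4.63% and 11.5% of all genes. The lower genes in MHCC97L-Src included 4 of 7 ligand shedding genes, ADAM9, ADAM10, ADAM12 and ADAM17, which are named after their values were seen. ADAM17, the main protease of EGFR ligands, was at a mean of 6.73 CPM against 22.9 CPM in MHCC97L, with an adjusted p of 0.143 by edgeR. Its libraries overlapped, at 6.35 to 7.42 CPM against 6.4 to 50.6 CPM, and MHCC97L replicate 1 was 5.58 times the mean of the other MHCC97L libraries. ADAM10 also overlapped, at 8.17 to 8.96 CPM against 8.04 to 44.6 CPM, while ADAM9 and ADAM12 did not. ADAM9 had a log2 fold change of -2.98 with an adjusted p of 0.0866 by edgeR. The lower genes also included PTPN11, SOS1 and SOS2 among 13 tested adaptors and NRAS among the RAS to ERK genes. These 8 of the 16 lower genes, all named after their values were seen, had transcript GC contents of 37.8% to 47.0%. In this range MHCC97L replicate 1 had the higher values. The part of GC content in their lower levels was not tested. Without MHCC97L replicate 1, the pathway genes past an adjusted p of 0.05 in MHCC97L-Src by edgeR were 3, LRIG1, GRB7 and ERRFI1, all higher. Leaving out each library in turn gave 0 to 22 such genes. Over the 58 genes the median log2 fold change was -0.40 in MHCC97L-Src and -0.29 in MHCC97L-Oxa, beside -0.16 and -0.19 over all genes.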

How the data were processed

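Libraries were grouped by the cell line in their labels. The authors deposited raw read counts per gene and, for the same genes and libraries, FPKM values (fragments scaled to transcript length and library size). The submitters' processing notes name Trimmomatic 0.36, HISAT2 2.2.1.0 and build GRCh38.p12, whereas the counting program, its annotation and the program behind the FPKM values are not given in the sources used here. The library kit marks strand, but whether counting used it is not given either. Poly(A) RNA was read from both ends, without molecular identifiers, so that floors cover counting error only.

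Each comparison was fitted on the counts of its 6 libraries by edgeR's quasi-likelihood test (edgeR 4.0.16, R 4.3.3) over all genes kept by filterByExpr with a minimum count of 10, with TMM normalization and Benjamini-Hochberg adjustment over all genes tested, and called at an adjusted p under 0.05. A second rule took p under 0.05 before adjustment together with a log2 fold change beyond 1 in size. SEs were obtained from the log2 fold change and the F statistic, whose root is their ratio. CPM used TMM-scaled library sizes, and log2 CPM for likeness and principal components a prior count of 2. Alternatives were DESeq2 1.42.0, limma 3.58.1 (voom with quality weights on counts, and its trend method on FPKM at pseudocounts of 1 and 0.1, log2 scale), DESeq2's size factors, total counts, no filter, all 9 libraries, the replicate number as a block, a correction for GC content and length by splines with 5 degrees of freedom, and leaving out each library. GC content and length were matched for 19346 of 20030 genes. Fits were tested on counts simulated at the common dispersion of each comparison, 0.174 for MHCC97L-Src and 0.16 for MHCC97L-Oxa against MHCC97L, and 0.0334 between the resistant lines. Of 99 genes changed by 1 on the log2 scale, 2 were recovered in each comparison with MHCC97L. Of 98 genes changed by 2, 51 were recovered for MHCC97L-Src and 58 for MHCC97L-Oxa. Between the resistant lines, 80 of 100 and 99 of 99 were recovered. Positions are from GENCODE on GRCh38, and upstream sequences from RefSeq on GRCh38.p14, matched by symbol for NRG2, AREG and EREG.

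The genes, lists and tests were chosen with earlier results of these data known. Named are the 10 receptor and ligand genes, pathway genes called in any comparison (at most the 4 largest per list and comparison), and the 3 genes most like each called receptor or ligand gene. Others named were picked after their values were seen. Of the pathway lists, 1 gene is not reported by name here.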

Additional observations from a re-analysis of the deposited data

Results flagged for a closer look

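For 4 genes the difference from MHCC97L was called unlike in the resistant lines, by the edgeR test of MHCC97L-Src against MHCC97L-Oxa. They were 1 of 9 receptor and ligand genes and 3 of 58 pathway genes, beside 4.64% of all genes tested. NRG2, the neuregulin, differed by 2.6 on the log2 scale (adjusted p = 0.0211 by edgeR), with 18 to 21 reads per library in MHCC97L-Src and 1 to 5 in MHCC97L-Oxa. It passed the count filter only through MHCC97L-Src. ADAM12 differed by -1.42 (adjusted p = 0.0127 by edgeR), ADAM19 by -0.75 (adjusted p = 0.026 by edgeR) and ERRFI1 by -0.76 (adjusted p = 0.0272 by edgeR), with MHCC97L-Src the lower line for each. None of the 4 passed with all 9 libraries in the fit (adjusted p = 0.153, 0.214, 0.418 and 0.749 by edgeR, in the order given). The same held without MHCC97L-Oxa replicate 2 (adjusted p = 0.11, 0.101, 0.171 and 0.123 by edgeR). Each line had 3 libraries, too few for a test of single libraries that lie far from their group.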

How the results depend on the processing

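The receptor and ligand genes called in MHCC97L-Src against MHCC97L were 1 by edgeR, and 2 by DESeq2, 4 by limma voom, 2 with all 9 libraries, 2 with the replicate block, 0 on either FPKM scale, 4 with the GC and length correction, 0 with that correction and the block, and 0 to 2 when a library was left out. In MHCC97L-Oxa they were 0, and 2 by limma voom, 2 with the GC and length correction and 0 to 2 when a library was left out. Between the resistant lines they were 1, and 3 by DESeq2, 6 by limma voom, 2 with total counts, 0 with all 9 libraries, 0 on either FPKM scale, 3 with the GC and length correction, 0 with that correction and the block, and 0 to 4 when a library was left out. Among fits on the counts of all libraries, NRG2 lost its call with the correction and block together in both comparisons and with all 9 libraries between the resistant lines, and on FPKM, where the pseudocounts exceed its values, it was lost in both.

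Pathway genes called in MHCC97L-Src were 1, and 11 by DESeq2, 18 by limma voom, 6 without a filter, 9 with all 9 libraries, 6 with the replicate block, 2 on each FPKM scale, 4 with the GC and length correction, 2 with that correction and the block, and 0 to 22 when a library was left out. In MHCC97L-Oxa they were 1, and 8 by DESeq2, 9 by limma voom, 2 with DESeq2's size factors, 3 with total counts, 2 without a filter, 5 with all 9 libraries, 2 on each FPKM scale, 8 with the GC and length correction, 6 with that correction and the block, and 0 to 22 when a library was left out. Between the resistant lines they were 3, and 6 by DESeq2, 23 by limma voom, 0 with all 9 libraries, 1 on each FPKM scale, 7 with the GC and length correction, and 0 to 8 when a library was left out.

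Directions turned for EGFR, ERBB2, EREG and ADAM12, none of them called in the comparison concerned. EGFR in MHCC97L-Src was 0.18 by limma voom, 0.28 with the GC and length correction and 0.28 with the block as well, and -0.38 to 0.23 when a library was left out. ERBB2 in MHCC97L-Src was -0.17, -0.19 and -0.18 in these fits, -0.01 with total counts, and -0.10 to 0.24 when a library was left out. ERBB2 in MHCC97L-Oxa was -0.11, -0.05 and -0.05, and -0.04 to 0.27 when a library was left out. EREG in MHCC97L-Src was 0.35 and 0.31 with the GC and length correction without and with the block. EREG in MHCC97L-Oxa was 0.10 by limma voom, 0.56 and 0.58 with these corrections, and -0.80 to 0.44 when a library was left out. ADAM12 in MHCC97L-Oxa was -0.13 to 0.53 when a library was left out. ERBB2 between the resistant lines was 0.01 by DESeq2 and with its size factors, and -0.15 to 0.08 when a library was left out.

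Deviations of same-numbered libraries correlated between -0.629 and 0.414 over the 3 comparisons, and those of different-numbered libraries between -0.514 and 0.639. The replicate numbers thus showed no clear pairing, and the block is given here as an alternative alone. Whether libraries of a number shared a batch was not tested. With the block, GRB7 in MHCC97L-Oxa (adjusted p = 0.056 by edgeR) and ADAM19 between the resistant lines (adjusted p = 0.0651 by edgeR) lost their calls, ERRFI1 in MHCC97L-Oxa gained one, and the pathway genes called were 1 in MHCC97L-Oxa and 2 between the resistant lines. Over all genes, calls were 256, 115 and 556 by edgeR, and 220 to 3567, 92 to 2225 and 86 to 4220 in the other fits of all libraries. Leaving out a library gave 22 to 3419, 2 to 2705 and 167 to 1617. With the GC and length correction, the median log2 fold change of all genes was -0.05 in place of -0.16 for MHCC97L-Src and -0.08 in place of -0.19 for MHCC97L-Oxa, and the calls moved from 172 higher and 84 lower to 661 and 616, and from 93 and 22 to 782 and 776. The cause of these shifts was not tested. At the levels of NRG1 and NRG2, a few reads per library limit the precision.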

Other observations

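Of 5 other ligands of the family, EGF, BTC and NRG3 were at or near 0 and EPGN and NRG4 were expressed. EGF and BTC, ligands of EGFR, had at most 3 and 1 counts in any library, and NRG3, a neuregulin, had 0 in all 9. NRG4, a ligand of ERBB4, had 35.6, 14.1 and 16.3 CPM in MHCC97L, 14.1, 10.5 and 14.9 CPM in MHCC97L-Src, and 15.8, 15.3 and 13.2 CPM in MHCC97L-Oxa, and MHCC97L replicate 1 was its highest library. EPGN, epigen, a ligand of EGFR, had 19.2, 5.05 and 13.0 CPM in MHCC97L, 3.20, 3.44 and 2.21 CPM in MHCC97L-Src, and 1.90, 3.77 and 4.48 CPM in MHCC97L-Oxa. By FPKM its median in MHCC97L was 3.42, next to 3.32 for HBEGF, the most abundant of the EGF-type ligands described above. In the resistant lines it was 0.638 FPKM in MHCC97L-Src and 0.966 FPKM in MHCC97L-Oxa. Every library of both resistant lines was below every MHCC97L library for EPGN, but the differences of -2.13 and -1.95 on the log2 scale did not pass (adjusted p = 0.0905 and 0.169 by edgeR). NRG4 and EPGN were named after their values were seen.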
